A study of Mus musculus with 10 samples.

Results

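The genes described here are 9 members of the Greatwall and PP2A module, out of 35501 genes that carried a value after transcripts were summed by gene: Mastl, Ensa, Arpp19, Ppp2ca, Ppp2cb, Ppp2r1a, Ppp2r1b, Ppp2r2a and Ppp2r5c. They were listed by name and no value entered that rule, although earlier results of these data were known when it was set. All 9 had a mean of at least 1 TPM, the level at which 11664 genes entered the test. The samples are single mouse oocytes at metaphase II, where the egg is arrested until a sperm enters. They were taken at the germinal vesicle stage from ICR mice (age 6 to 8 weeks) and kept for 16 h in culture to mature. The 5 control libraries carry the agent label control, and the 5 TubA libraries came from oocytes given TubA at 0.1 µg/mL for 16 h. No genetic change is named for either group. The labels leave TubA unexplained; it is a common short name of tubastatin A, which inhibits HDAC6, a deacetylase of tubulin. The comparison asks whether these transcripts differ when oocytes mature with the agent. No animal or culture is named for a library, so each n is a number of oocyte libraries, and a p-value reflects no more than how much these libraries varied, which may be technical.

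Greatwall, the kinase encoded by Mastl, phosphorylates the small proteins ENSA and ARPP19, which then bind and inhibit the phosphatase PP2A when it carries a B55 regulatory subunit. With this phosphatase held down, the substrates of CDK1 and cyclin B stay phosphorylated, which oocytes need to enter and hold the meiotic M phase. A PP2A holoenzyme joins a catalytic subunit (Ppp2ca or Ppp2cb), a scaffold (Ppp2r1a or Ppp2r1b) and an interchangeable B subunit. Among the members, Ppp2r2a encodes B55 alpha, of the family that Greatwall controls, and Ppp2r5c encodes B56 gamma, of the family that protects centromeric cohesion with shugoshin.

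Ensa and Arpp19 carry the same Greatwall site, and its coding sequence is shown because it is where the kinase of this module meets its substrates. Both stretches lie within 1 coding exon (GENCODE M21, GRCm38). The stretch of Ensa is at chr3:95628541-95628588 on the plus strand and that of Arpp19 at chr9:75056635-75056682 on the plus strand. The capitals mark the codon of the serine that Greatwall phosphorylates, codon 67 of 117 in the leading transcript Ensa-201 and codon 46 of 96 in the leading transcript Arpp19-203.
Ensa: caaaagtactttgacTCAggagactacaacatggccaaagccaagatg
Arpp19: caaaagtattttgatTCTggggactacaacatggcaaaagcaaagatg
Of the 48 bases, 42 are identical. Over the aligned coding sequences of the leading transcripts 77.3% of bases are identical, with a longest identical run of 20 bases, and Arpp19 shared no word of 31 bases with any other gene listed above 0 TPM. The site was also found in Arpp19-205, at codon 62 of 112.

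The 2 catalytic subunits end alike, and the end of their coding sequences is shown because the last leucine is the residue that the methyltransferase LCMT1 methylates to favour assembly with B55. The stretch of Ppp2ca is at chr11:52121909-52121974 and that of Ppp2cb at chr8:33619129-33619194, both in 1 exon on the plus strand (GENCODE M21, GRCm38). The capitals mark the codon of that leucine, codon 309 of 309, followed by the stop codon.
Ppp2ca: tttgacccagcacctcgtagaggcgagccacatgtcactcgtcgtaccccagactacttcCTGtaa
Ppp2cb: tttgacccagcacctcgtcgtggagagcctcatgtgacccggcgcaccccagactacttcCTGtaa
Here 58 of 66 bases are identical, against 81.7% over the whole coding sequence of 930 bases. The longest identical run was 25 bases. Of the words of Ppp2ca 2.83% occurred in another gene listed above 0, and of those of Ppp2cb none.

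Values were in TPM, an abundance per transcript length that sums to the same total in every library. Levels of different genes are thus on 1 scale, but whether genes were captured alike was not tested. The depth of each library is unknown. All libraries carried oocyte transcripts: the 8 oocyte markers summed to between 26734 and 37709 TPM in control and between 28430 and 37258 TPM with TubA. H1foo, the oocyte linker histone gene, gave the most of this sum, and the zona pellucida genes varied widely within it: Zp3 stood at 406 TPM in control replicate 1 and 750 TPM in TubA replicate 2, against 998 to 8123 TPM elsewhere, and Zp1 and Zp2 were lowest in the same libraries. The 9 cumulus and granulosa markers summed to between 8.30 and 14.3 TPM and between 9.81 and 19.1 TPM. Most of this was Cyp19a1, at 6.59 to 18.0 TPM over the libraries, and 2 of the 9, Amh and Foxl2, were listed at 0 in every library. Clustering of the libraries was cut at 2 sets, a number given to the method and not found by it. The sets cross the treatment, with control replicates 1 to 3 and TubA replicates 1 and 2 in set A and the rest in set B. The ranges of all 9 members overlapped between the sets.

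No member differed between TubA and control oocytes beyond the spread between libraries. Of 9 members, 0 passed an adjusted p of 0.05 (limma on log2(TPM + 1), Benjamini-Hochberg adjustment over all 11664 genes), against 0.00857% of all genes tested, and 0 had an unadjusted p under 0.05, against 2.51%. The adjusted p was 0.9999 for each member in this limma fit. In no member did the control and TubA libraries separate without overlap, which 0.454% of all genes did. Differences were above 0, that is higher with TubA, in 7 members and below 0 in 2, against 51.4% above 0 among all genes tested. The median difference of the members was 0.11 on the log2(TPM + 1) scale and that of all genes 0.0097. For 5 of the 9 (Mastl, Arpp19, Ppp2r1a, Ppp2r2a and Ppp2r5c) the 95% interval excluded a 2-fold change of TPM + 1, up or down, as it did for 57% of all genes. For Ensa, Ppp2ca, Ppp2cb and Ppp2r1b the interval was wider and held a 2-fold change in at least 1 direction.

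**Figure D1:**
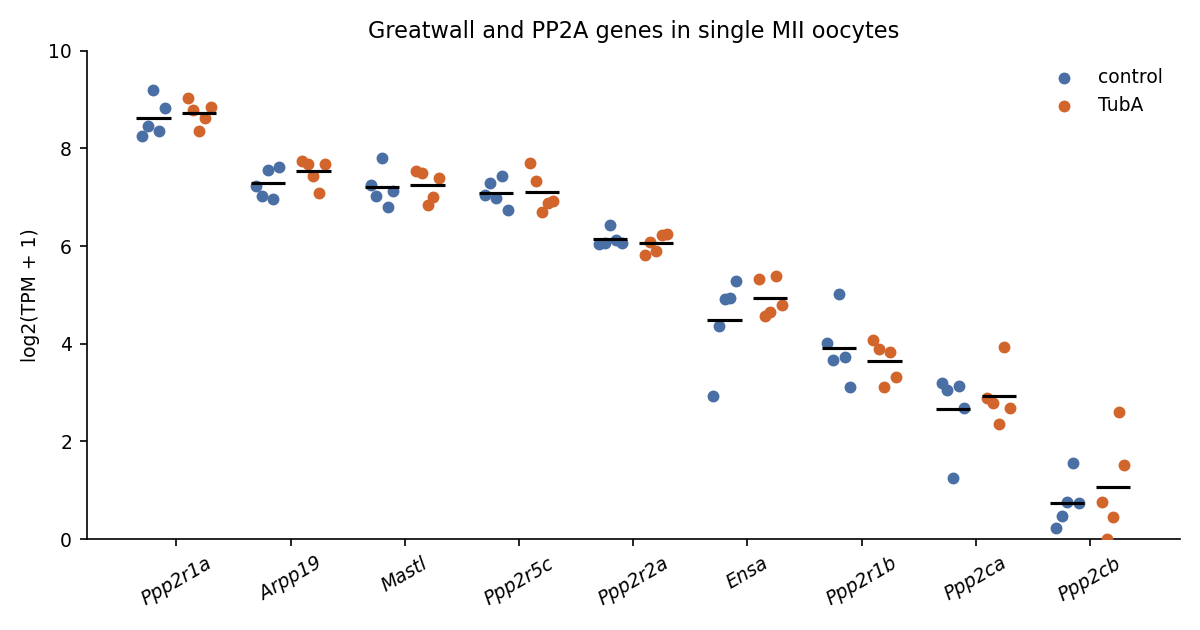
Level of each gene as log2(TPM + 1) in single oocyte libraries, control in blue and TubA in orange, with a bar at the mean of 5 libraries. Ppp2r1a lies highest and Ppp2cb lowest, and the points of the 2 groups overlap in all 9 genes.

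Summed over all transcripts of a gene, those with no coding sequence included, the levels fell into a wide order. Ppp2r1a had a mean of 417 TPM over all 10 libraries, above that of 96.7% of the genes tested, and was higher than Arpp19, the next, in 10 of 10 libraries. Arpp19 (172 TPM), Mastl (153 TPM) and Ppp2r5c (139.7 TPM) followed and were not separated beyond their spread. Arpp19 exceeded Mastl in 7 of 10 libraries and Mastl exceeded Ppp2r5c in 7 of 10. Ppp2r2a (68.1 TPM) lay below Ppp2r5c in all 10 libraries and above Ensa (27.6 TPM) in all 10, without overlap of the ranges on either side. Ensa exceeded Ppp2r1b (13.8 TPM) in 8 of 10 libraries and Ppp2r1b exceeded Ppp2ca (6.61 TPM) in 9 of 10, with overlapping ranges. Ppp2cb (1.18 TPM) was lowest and stood below Ppp2ca in every library, and its mean was above that of 3.44% of the genes tested.

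Over coding transcripts alone, an order computed after seeing the data, part of this changed. Ppp2r1a (269 TPM) stayed first, and Ppp2r5c (139.7 TPM) and Arpp19 (129 TPM) were not separated, each being the higher in 5 of 10 libraries. Mastl (43.6 TPM) then lay below Arpp19 in 10 of 10 libraries without overlap of the ranges. Ensa (27.5 TPM) exceeded Ppp2r2a (22.3 TPM) in 6 of 10 libraries, so these genes were no longer separated.

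Mastl (ENSMUSG00000026779, chromosome 2, 23115606 to 23156024, minus strand), the Greatwall kinase gene, had 152, 129.9, 223, 111 and 138 TPM in control replicates 1 to 5. With TubA it had 185, 179, 114, 128 and 167 TPM in replicates 1 to 5. The highest library, control replicate 3, and the lowest, control replicate 4, both belonged to the control group, which enclosed every TubA value. The means were 151 ± 42.9 and 155 ± 31.8 TPM (SD, n = 5 each; the control value comes first here and in what follows), a log2 difference of 0.05 (SE 0.22, 95% interval -0.42 to 0.52, limma unadjusted p = 0.82). Without control replicate 3 the difference was 0.20.

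Most of the Mastl signal was assigned to a transcript with no annotated coding sequence. Mastl-202, annotated as a processed transcript, held between 64.3% and 78.2% of the gene's TPM and exceeded the protein-coding Mastl-201 in 10 of 10 libraries. Mastl-201 stood at 45.5, 32.6, 65.5, 39.7 and 39.6 TPM in control and at 40.3, 43.8, 35.6, 43.7 and 49.9 TPM with TubA. The groups again overlapped, at 44.6 ± 12.5 and 42.6 ± 5.27 TPM. On the coding transcript alone the log2 difference was -0.031, so the sign of the Mastl difference depended on which transcripts were summed. The files hold estimates per transcript, and how well the 2 were separated cannot be read from them.

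The genes whose pattern over the 10 libraries came nearest to that of Mastl were Cdc42se2, Gbf1 and Phtf2. Likeness was the root mean square difference of log2(TPM + 1) after centring each gene on its mean, among the 9534 other tested genes that varied at least as much as Mastl. It was 0.0885 for Cdc42se2, 0.0920 for Gbf1 and 0.105 for Phtf2, where Mastl itself had a standard deviation of 0.324. The points share libraries and the TPM scale.

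Of the Greatwall substrates, Arpp19 was the more abundant transcript throughout. Arpp19 (ENSMUSG00000007656, chromosome 9, 75037614 to 75060313, plus strand) had 150.1, 129, 188, 123 and 197 TPM in control and 214, 205, 171, 136 and 205 TPM with TubA. The upper TubA values lay above the highest control library, but TubA replicates 3 and 4 lay within the control range. The means were 158 ± 33.5 and 186 ± 32.6 TPM (log2 difference 0.25, SE 0.20, 95% interval -0.18 to 0.67, limma unadjusted p = 0.23). The difference stayed above 0 in all 23 alternative analyses, between 0.11 and 0.44, and passed the test in none.

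Ensa (ENSMUSG00000038619, chromosome 3, 95624993 to 95632102, plus strand) had 6.61, 19.7, 29.3, 29.7 and 38.1 TPM in control. With TubA it had 38.9, 22.6, 24.3, 40.6 and 26.6 TPM. Control replicate 1 was the lowest library, and the other control values spanned nearly the whole TubA range. The means were 24.7 ± 12.03 and 30.6 ± 8.49 TPM (log2 difference 0.45, SE 0.40, 95% interval -0.42 to 1.32, limma unadjusted p = 0.28). This was the largest difference among the members, and without control replicate 1 it was 0.06. Control replicate 1 is also the library with the lowest Zp1, Zp2 and Zp3. It had the fewest genes at 1 TPM or more, 10521 against 10714 to 11698 elsewhere. The part of these traits in the Ensa difference was not tested. The Ensa difference was 0.87 within set A, which holds control replicate 1, and -0.17 within set B.

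Ensa held between 4.22% and 23.04% of the summed TPM of the pair, and Arpp19 was the higher of them in 10 of 10 libraries. The share was 13.3 ± 5.67% in control and 14.5 ± 5.19% with TubA. The difference of 1.14 percentage points did not exceed how far libraries varied (exact two-sided permutation p = 0.77, 0.98 when adjusted over the 4 shares tested). Nearly all of Ensa came from Ensa-201, which held 93.2% to 98.3% of its TPM. Arpp19 was divided between 3 transcripts, the coding Arpp19-203 and Arpp19-205 and Arpp19-202, which is annotated as a target of nonsense-mediated decay. Arpp19-203 stood at 66.4 ± 17.7 and 79.3 ± 21.3 TPM, Arpp19-205 at 47.3 ± 22.3 and 49.0 ± 11.3 TPM and Arpp19-202 at 38.3 ± 9.50 and 46.9 ± 12.8 TPM. All transcripts of Arpp19 annotated as coding held 67.3% to 82.8% of its TPM.

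The catalytic subunits were the least abundant members. Ppp2ca (ENSMUSG00000020349, chromosome 11, 52098681 to 52127778, plus strand) had 8.19, 7.31, 1.36, 7.80 and 5.44 TPM in control and 6.36, 5.90, 4.16, 14.2 and 5.40 TPM with TubA. The extremes were single libraries, control replicate 3 at the low end and TubA replicate 4 at the high end. The means were 6.02 ± 2.81 and 7.21 ± 4.005 TPM (log2 difference 0.26, SE 0.42, 95% interval -0.65 to 1.18, limma unadjusted p = 0.54). Without control replicate 3 the difference was -0.092 and without TubA replicate 4 it was 0.01.

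Ppp2cb (ENSMUSG00000009630, chromosome 8, 33599625 to 33619441, plus strand) had 0.165, 0.380, 0.696, 1.94 and 0.661 TPM in control. With TubA it had 0.698, 0, 0.363, 5.07 and 1.84 TPM. TubA replicate 2 was listed at 0, and TubA replicate 4 was again the highest. The means were 0.769 ± 0.692 and 1.60 ± 2.06 TPM (log2 difference 0.32, SE 0.48, 95% interval -0.72 to 1.36, limma unadjusted p = 0.52). The difference depended on the pseudocount of 1 TPM, being 0.25 with 0.1 TPM and 0.15 with 5 TPM in its place. Without TubA replicate 4 the difference was -0.068. Ppp2ca held between 66.2% and 100% of the catalytic TPM, 85.7 ± 12.9% in control and 86.1 ± 11.5% with TubA (p = 0.98 by the exact two-sided permutation test, also when adjusted over the 4 shares).

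The scaffold Ppp2r1a (ENSMUSG00000007564, chromosome 17, 20945311 to 20965916, plus strand) had 304, 353, 584, 328 and 456 TPM in control and 521, 441, 327, 392 and 463 TPM with TubA. Both the lowest and the highest library were controls. The means were 405 ± 115 and 429 ± 73.5 TPM (log2 difference 0.11, SE 0.21, 95% interval -0.34 to 0.55, limma unadjusted p = 0.61). Without control replicate 3 the difference was 0.25 and without control replicate 1 it was 0.015. The coding Ppp2r1a-201 held 60.7% to 69.3% of this TPM, and nearly all the rest was Ppp2r1a-204, annotated as a transcript with a retained intron.

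Its paralogue Ppp2r1b (ENSMUSG00000032058, chromosome 9, 50845301 to 50894229, plus strand) had 15.1, 11.7, 31.6, 12.3 and 7.69 TPM in control and 15.8, 13.9, 7.71, 13.2 and 8.92 TPM with TubA. Control replicate 3 stood above all other libraries, which lay between 7.69 and 15.8 TPM. The means were 15.7 ± 9.31 and 11.9 ± 3.44 TPM (log2 difference -0.26, SE 0.35, 95% interval -1.02 to 0.49, limma unadjusted p = 0.46). Without control replicate 3 the difference was 0.016. Of the words of Ppp2r1b 21.1% also occur in Sik2, listed at a mean of 4.18 TPM, so the level of Ppp2r1b is uncertain to that extent. Sik2 starts at 50892801 on the minus strand, so the 2 genes overlap on opposite strands and Sik2 is not a copy elsewhere. With Sik2 added the difference was -0.20.

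Ppp2r1a held 94.9% to 98.3% of the scaffold TPM, 96.3 ± 1.37% in control and 97.3 ± 0.574% with TubA. This difference of 0.97 percentage points was within the spread (exact two-sided permutation p = 0.18, 0.73 when adjusted over the 4 shares). Without control replicate 5 it was 1.48 points (exact two-sided permutation p = 0.016, 0.063 when adjusted). Within set A it was 1.35 points and within set B 0.15 points. The longest run of identical bases between the coding sequences of Ppp2r1a-201 and Ppp2r1b-202 was 23 bases, and Ppp2r1a shared no word of 31 bases with another gene listed above 0.

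Ppp2r2a (ENSMUSG00000022052, chromosome 14, 67014056 to 67072444, minus strand), encoding the B55 alpha subunit, had 65.3, 66.3, 85.1, 69.1 and 65.8 TPM in control. With TubA it had 55.3, 66.8, 58.9, 73.7 and 75.1 TPM. Control replicate 3 stood above all other libraries, and the other 4 controls lay within the TubA range. The means were 70.3 ± 8.38 and 66.0 ± 8.77 TPM (log2 difference -0.09, SE 0.17, 95% interval -0.46 to 0.27, limma unadjusted p = 0.59), the smallest SE among the members. Without control replicate 3 the difference was -0.024. Of its TPM only 25.9% to 38.6% was assigned to coding transcripts. Of its words 11.1% occur in other genes, the most in the pseudogene Gm19221, listed at a mean of 0.0046 TPM. The leading transcript was Ppp2r2a-203, annotated as a target of nonsense-mediated decay, at 29.4 ± 4.65 and 28.7 ± 7.55 TPM, beside the coding Ppp2r2a-201 at 21.2 ± 1.34 and 20.4 ± 4.65 TPM.

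Ppp2r5c (ENSMUSG00000017843, chromosome 12, 110447120 to 110583062, plus strand), encoding the B56 gamma subunit, had 131, 155, 125, 171 and 106 TPM in control. With TubA it had 207, 159.8, 103, 118 and 120.3 TPM. TubA replicate 1 was the highest library and TubA replicate 3 the lowest. The means were 138 ± 25.8 and 142 ± 42.2 TPM (log2 difference 0.01, SE 0.22, 95% interval -0.46 to 0.49, limma unadjusted p = 0.95). The difference was 0.41 within set A and -0.24 within set B, and neither passed the test. Whether it differed between the sets was not tested. Nearly all of its TPM was in coding transcripts, led by Ppp2r5c-203 at 53.3 ± 16.6 and 60.9 ± 35.4 TPM and Ppp2r5c-205 at 50.3 ± 14.3 and 45.5 ± 11.2 TPM.

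Ppp2r2a held 34.1 ± 5.15% of the summed TPM of Ppp2r2a and Ppp2r5c in control and 32.8 ± 7.50% with TubA (p = 0.75 by the exact two-sided permutation test, 0.98 when adjusted over the 4 shares). The share ranged from 21.1% in TubA replicate 1 to 40.5% in control replicate 3. It counts all transcripts, whereas the means over coding transcripts alone were 22.3 TPM for Ppp2r2a and 139.7 TPM for Ppp2r5c.

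**Figure D2:**
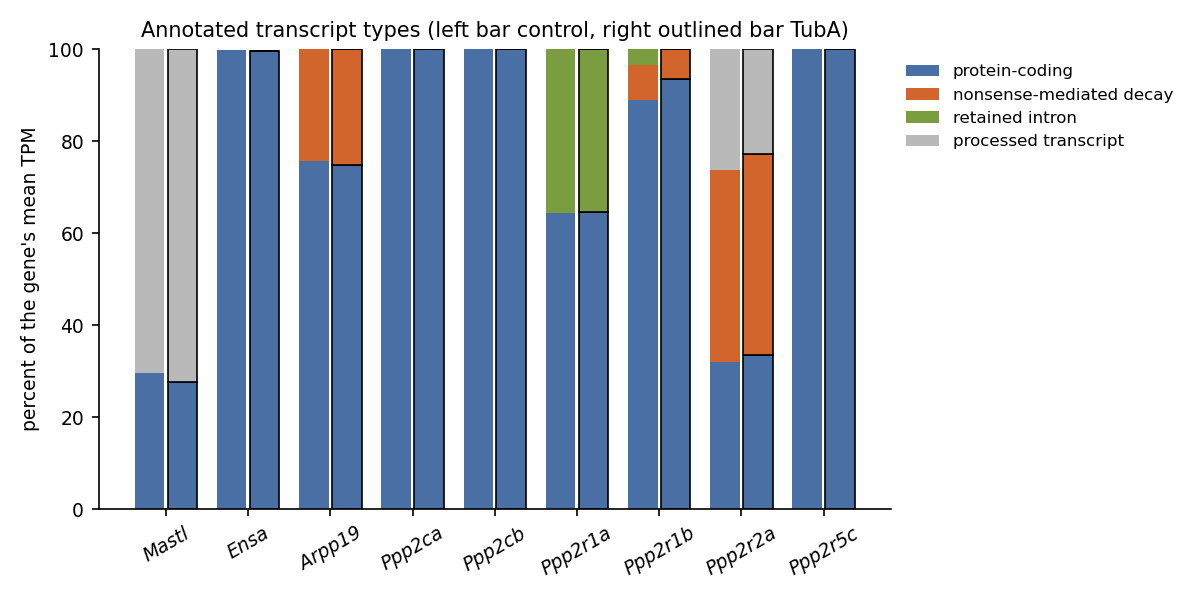
Percent of each gene's mean TPM by annotated transcript type, left bar control and right outlined bar TubA (means of 5 libraries; 1 further type of Ensa, at most 1.89% of its TPM in a library, is not drawn). Coding transcripts hold the smaller part in Mastl and Ppp2r2a, 60.8% to 69.3% over the libraries in Ppp2r1a and nearly all in Ensa, Ppp2ca, Ppp2cb and Ppp2r5c, in both groups.

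The share held by each gene's leading transcript did not differ between the groups beyond the spread. This share was tested in the 7 members with more than 1 transcript above 0, and 0 passed, with 0 at an unadjusted p under 0.05 (exact two-sided permutation test). The test was not run over all genes, so no share stands beside these counts. The largest shift was that of Ppp2r1b-202, from 83.3 ± 14.1% of Ppp2r1b in control to 73.0 ± 6.25% with TubA (exact two-sided permutation p = 0.18, 0.81 when adjusted over the 7 genes). For the leading transcripts of Mastl and Ppp2r1a the shares were 70.3 ± 3.81% and 71.7 ± 5.06%, and 64.9 ± 3.26% and 64.4 ± 1.95%.

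Each of the 26 member transcripts with a mean of at least 0.5 TPM was also tested on its own, and 0 passed an adjusted p of 0.05 (limma over 27218 transcripts), against 0.00367% of all transcripts. At an unadjusted p under 0.05 stood 2 of the 26, against 3.24%, and they are named here after their values were seen. Ppp2r1b-204 had 0, 0.390, 0.391, 0.172 and 0 TPM in control and 1.39, 1.55, 1.33, 1.71 and 1.06 TPM with TubA, with no overlap between groups, as in 0.474% of all transcripts (limma adjusted p = 0.999998, unadjusted p = 0.0010). Arpp19-210, annotated as coding and with the Greatwall site at codon 62, had 0.533, 0, 0.740, 1.94 and 2.46 TPM in control and 8.60, 3.56, 2.44, 6.85 and 10.3 TPM with TubA (limma adjusted p = 0.999998, unadjusted p = 0.0018). TubA replicate 3 lay within the control range of Arpp19-210. Ppp2r1b-204 held 0% to 3.34% of Ppp2r1b in the controls and 8.81% to 17.2% with TubA, the 1 share without overlap among those of the 26 transcripts. Arpp19-210 held 0% to 1.58% and 1.43% to 5.05% of Arpp19. These shares were computed after seeing the data and are given without a test. How often shares separate without overlap over all transcripts was not computed, so nothing is read from that count.

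Summed by role, scaffold transcripts exceeded catalytic ones by a wide margin in every library. The catalytic genes summed to 6.79 ± 2.95 TPM in control and 8.80 ± 5.96 TPM with TubA, and the scaffold genes to 421 ± 122 and 441 ± 75.8 TPM. The ratio of scaffold to catalytic TPM ranged from 21.02 in TubA replicate 4 to 299 in control replicate 3, with 34.95 to 77.2 in the other 8 libraries. The 4 B55 genes summed to 172 ± 30.6 and 190.1 ± 25.7 TPM and the 5 B56 genes to 189 ± 34.2 and 181 ± 34.8 TPM. B55 was the higher of these families in 5 of 10 libraries. These sums count all transcripts, those not annotated as coding included. Coding transcripts held 25.9% to 38.6% of Ppp2r2a but 99.9% to 100% of Ppp2r5c, and the families were not compared on coding transcripts alone. Ppp2r5c alone held 64.8% to 88.3% of the B56 sum. Ppp2r2a held 26.2% to 67.8% of the B55 sum and was second to Ppp2r2d, the B55 delta gene, in 9 of 10 libraries, the exception being control replicate 3.

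**Figure D3:**
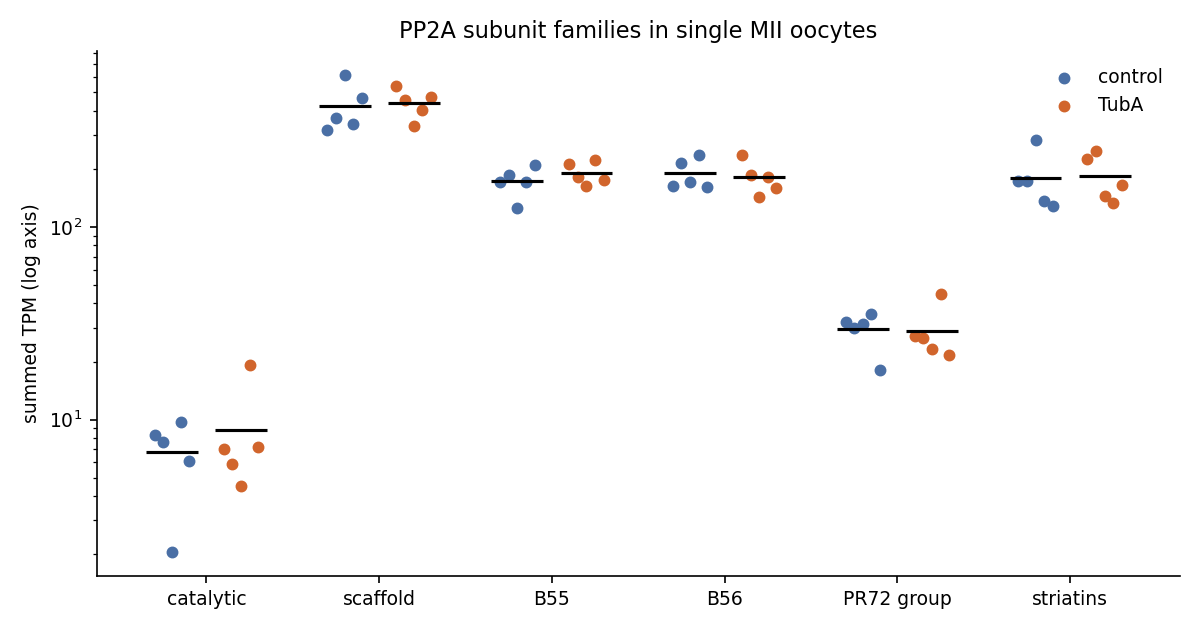
Summed TPM of PP2A subunit families on a log axis, 1 point per library, control in blue and TubA in orange, with a bar at the mean of 5. Catalytic transcripts lie between 2.06 and 19.3 TPM and scaffold transcripts between 319 and 616 TPM, and the groups overlap in each of the 6 families.

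Other genes of the pathway did not separate the groups either. Of 33 genes in 4 lists, 31 were tested and 0 passed over all genes (limma adjusted p, lowest 0.9999), against 0.00857% of all genes tested. Without overlap were 0, against 0.454%, and at an unadjusted p under 0.05 stood 1 gene, against 2.51%. That gene, named after its values were seen, was Ppp2r5e, the B56 epsilon gene, with 19.4, 26.5, 22.1, 15.9 and 21.2 TPM in control and 4.83, 9.61, 18.4, 13.8 and 11.1 TPM with TubA. Only TubA replicate 3 lay within the control range (log2 difference -0.90, SE 0.31, limma adjusted p = 0.9999, unadjusted p = 0.013).

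Over all genes tested 51.4% of differences were above 0, the share beside which the counts of each list stand. Among the other B subunits 4 of 11 differences were above 0 and 7 below, with a median of -0.03. The most abundant were the striatin gene Strn, at 164 ± 59.4 and 169 ± 54.8 TPM, and Ppp2r2d, at 80.5 ± 41.6 and 101.02 ± 18.7 TPM. Ppp2r2d stood at 13.97 TPM in control replicate 3 and between 74.0 and 132 TPM in the other 9 libraries. The assembly and inhibitor list had 7 of 10 above 0 and a median of 0.11. It was led by the PP2A-B55 inhibitor gene Fam122a, at 487 ± 212 and 532 ± 100.1 TPM, and the PP2A-B56 inhibitor gene Bod1, at 322 ± 193 and 310 ± 182 TPM. Bod1 stood at 36.3 TPM in control replicate 3 and 61.5 TPM in TubA replicate 1, against 232 to 556 TPM elsewhere.

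The catalytic subunits of related phosphatases had 2 of 6 above 0 and a median of -0.09. The most abundant, Ppp4c and the PP1 gene Ppp1cc, stood at 251 ± 41.6 and 244 ± 64.04 TPM and at 76.1 ± 36.3 and 88.6 ± 21.6 TPM. Ppp1cc shares 40.6% of its words with the copy Ppp1ccb, so its level is uncertain. Ppp4c exceeded Ppp2ca in 10 of 10 libraries. Of the genes of kinases and cyclins that act upstream of Greatwall or on the same substrates, 3 of 4 were above 0, with a median of 0.07. The cyclin B1 gene Ccnb1 led this list with a log2 difference of 0.07 and shares 22.9% of its words with the copy Ccnb1-ps, followed by the kinase gene Plk1 at 159 ± 42.2 and 165 ± 37.1 TPM.

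**Figure D4:**
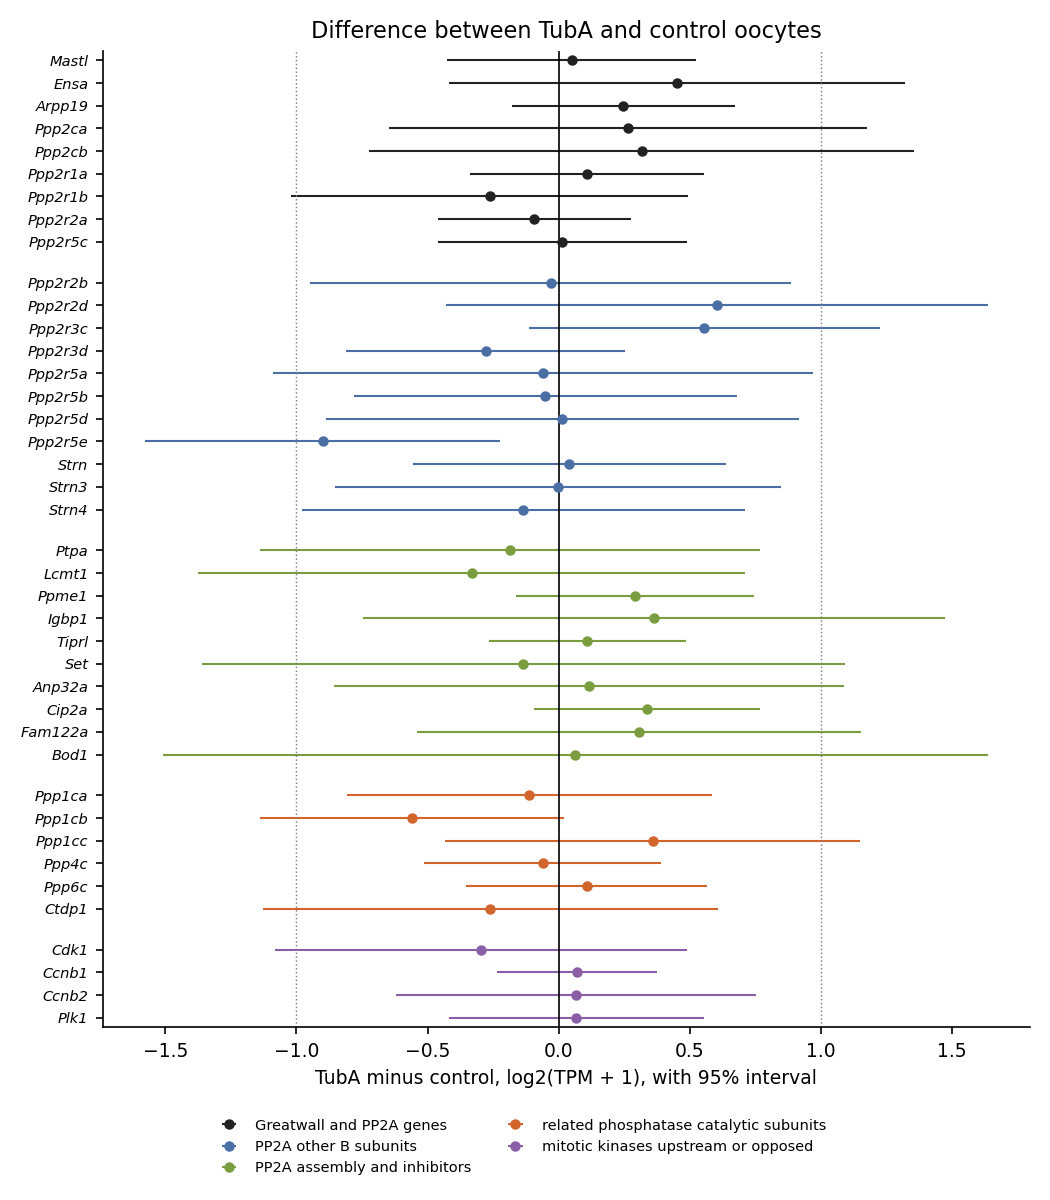
Difference between TubA and control on the log2(TPM + 1) scale, with its 95% interval from limma, for the 9 Greatwall and PP2A genes and 31 other pathway genes, dotted lines marking a 2-fold change of TPM + 1. The interval includes 0 in every gene but Ppp2r5e, which did not pass after adjustment over all genes.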

How the data were processed

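Oocytes were amplified as single cells with Smart-seq2, per the labels' protocols. The submitters' processing notes name Bowtie 0.12.2 and mm10. Neither the quantifier nor its transcript set is given in the sources used here. The deposited values are TPM per Ensembl transcript, the unit being read from library totals of 1000000. TPM keeps no depth, so no counting interval is given and errors reflect how far libraries varied.

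Transcripts were matched to GENCODE M21 (GRCm38, the assembly of mm10) and summed by gene: 113492 were found there. The other 1778, with 0.531% to 0.753% of the TPM in a library, were dropped, and some may belong to the genes described. Log2(TPM + 1) values of the 11664 genes averaging 1 TPM or more were tested in R 4.3.3 by limma 3.58.1 (trend and robust options on), p-values being adjusted by Benjamini-Hochberg; the script was checked on simulated data. Shares were compared by an exact two-sided permutation test over 252 assignments. Sequence sharing was counted in words of 31 bases on either strand, a copy being a gene that holds 20% or more of them. By this rule an overlapping gene such as Sik2 was also added as a copy. Coding alignments used Biopython 1.88. Figures were drawn with matplotlib 3.10.9.

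Genes named are the 9 members, the 2 most abundant genes of each pathway list with any past the threshold, and the 3 genes nearest to Mastl. Members, lists and library sets were chosen with earlier results of these data known. Alternatives covered pseudocounts, filters, scalings, library weights, a replicate block, library sets, sequence copies and leaving out each library. Coding transcripts only, single transcripts and their shares were added after seeing the data.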

Additional observations from a re-analysis of the deposited data

Results flagged for a closer look

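Dixon's ratio was taken in 102 groups of 5 libraries (the 9 members, the 4 shares, the leading-transcript shares of 7 members and all 31 pathway genes tested). In 11 groups 1 library stood far from the other 4. The cutoff flags about 1 in 20 groups of normal, independent values. Normality was not tested and the groups share libraries, so no excess is read from the count. The flagged groups were 4 in control replicate 3 and 7 in TubA replicate 4.

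In control replicate 3, Ppp2r2a stood at 85.1 TPM against 65.3 to 69.1 TPM in the other controls. There Fam122a stood at 126 TPM against 524 to 684 TPM, Ppp4c at 178 TPM against 260 to 279 TPM, and Ptpa, the gene of a PP2A activator, at 35.4 TPM against 5.28 to 9.99 TPM.

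In TubA replicate 4, Ppp2ca stood at 14.2 TPM against 4.16 to 6.36 TPM in the other TubA libraries, and Ppp2r2a-203 held 55.7% of Ppp2r2a against 38.8% to 41.9%. The other subunit genes high there were Ppp2r2b at 52.3 TPM against 11.3 to 21.9 TPM, Ppp2r3c at 19.5 TPM against 5.91 to 8.98 TPM, Ppp2r5d at 9.51 TPM against 1.86 to 3.89 TPM and Strn3 at 5.93 TPM against 0.882 to 2.28 TPM. The PP1 gene Ppp1ca stood at 61.6 TPM against 19.95 to 25.05 TPM.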

How the results depend on the processing

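In each of the 23 alternatives 0 of the 9 members passed the test (lowest limma adjusted p 0.97). Over all genes the same settings called 0 or 1 gene, except 12 of 11664 within set A. A count of 0 of 9 is thus near the share over all genes. The signs of Arpp19 and Ppp2r1a stayed above 0. Signs turned elsewhere, each time without passing: on the log2 scale Mastl was at -0.031 in coding transcripts only; Ppp2ca at -0.069 and Ppp2r5c at -0.044 with array weights; Ppp2cb at -0.10 within set A; and within set B Ensa at -0.17, Ppp2r2a at 0.030 and Ppp2r5c at -0.24. Within set B the share differences became -2.17 points for Ensa, -4.53 for Ppp2ca and 4.22 for Ppp2r2a. Within set A they were 2.35 points for Ensa, 8.62 for Ppp2ca and -9.26 for Ppp2r2a.

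Leaving out 1 library gave log2 differences of -0.050 to 0.20 for Mastl, 0.06 to 0.65 for Ensa, -0.092 to 0.40 for Ppp2ca, -0.068 to 0.58 for Ppp2cb, 0.015 to 0.25 for Ppp2r1a, -0.46 to 0.016 for Ppp2r1b, -0.14 to -0.024 for Ppp2r2a, -0.13 to 0.11 for Ppp2r5c and 0.16 to 0.35 for Arpp19. Share differences ran from -1.13 to 2.67 points for Ensa, -4.51 to 3.46 for Ppp2ca, 0.61 to 1.48 for Ppp2r1a and -2.81 to 1.55 for Ppp2r2a. The cause of these turns was not tested.

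Same-numbered libraries correlated at -0.31 to 0.48, and the labels name no animal or culture that would pair them. With the replicate block, 0 members passed and calls over all genes went from 1 to 0. Only replicates 4 and 5 matched best with their own number. Ppp2cb has no value where a mean of at least 5 TPM was required. Within 1 library set the exact test has too few assignments to pass. Depth is unknown, and low genes such as Ppp2cb are the least precise.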
